A study of Mus musculus with 2 samples.

Results

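The cells described here are basal keratinocytes of the mouse tongue that carry few or no transcripts of the genes marking the Pappa-type and Npnt-type basal states. Tongue epithelium was profiled by single-cell RNA sequencing in 2 libraries, from tongues of B57BL/6 mice aged 8 to 12 weeks, labelled male, collected at Zeitgeber times ZT0 and ZT12, which by convention are lights on and lights off. After TrypLE digestion the cells that excluded 7-AAD were sorted as living and taken into 10x Genomics 3' libraries, a single one for each time. No genetic change or agent is named, and the sources used here do not give how many mice went into a library. Every difference between times is therefore a difference between 2 libraries, and every interval below is a 95% interval for counting error only.

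The members were found by a rule on unique molecular identifiers (UMIs, which count captured transcripts). Cells with at least 500 genes, at least 5000 UMIs and under 10% mitochondrial UMIs were kept. Basal cells had at least 10 UMIs per 10000 of the hemidesmosome genes Col17a1, Itga6 and Itgb4 together and under 10 per 10000 of 6 mitosis genes. Members were basal cells with fewer than 3 UMIs of Pappa, Nppc and Hmcn1, fewer than 3 UMIs of Npnt, Frem2 and Sema3c, and no Sostdc1 UMI. This gave 354 members of 1477 basal and 4078 filtered cells, 98 at ZT0 and 256 at ZT12. The other basal cells numbered 411 and 712. They comprised 110 and 183 Pappa-type cells, 198 and 335 Npnt-type cells, 52 and 81 cells past both of these limits, and 51 and 113 cells that missed the rule through Sostdc1 alone.

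The members held 2042556 UMIs at ZT0 and 4749822 at ZT12, with a median per cell of 21195 and 17612 UMIs and 4710.5 and 4226.5 genes. Library and label checks come before the results. Although both libraries are labelled male, Xist, the RNA of the inactive X chromosome of females, had a UMI in 1510 of the 1525 cells at ZT0 and 2218 of the 2553 at ZT12, while 4 genes of the Y chromosome gave 1 UMI in each library. Among members, 98 of 98 and 235 of 256 cells had an Xist UMI, and the Y genes gave 0. The ribosomal-RNA-like transcripts Gm42418 and AY036118 were together at 5160 CPM (counts per 1000000 UMIs) in ZT0 members and 2658 CPM in ZT12 members. The libraries shared 2 of their cell barcodes, none of them among members.

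The epithelium of the tongue is renewed from its basal layer, where keratinocytes rest on the basement membrane through hemidesmosomes and express Krt5, Krt14 and the transcription factor p63 (Trp63). Cells that leave this layer in the tongue switch on the mucosal keratins Krt13 and Krt4. The dorsal surface forms papillae, and regional signals such as BMP and Wnt pattern them, so basal cells of one tissue can differ by place as well as by stage.

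The label was checked on markers that the rule did not use, since Col17a1, Itga6 and Itgb4 were required. Krt5 was at 5001 and 5571 CPM (ZT0 first, as in all pairs of values below), against 4987 and 5567 CPM in the other basal cells. Trp63 was at 544 and 374 CPM, against 651 and 466 CPM in the other basal cells and 153 and 120 CPM in differentiated cells. Krt5 was at 1024 and 686 CPM in differentiated cells. Krt14 was lower in members, at 6768 and 6712 CPM against 10276 and 11880 CPM in the other basal cells. Differentiated cells had 3047 and 2626 CPM of Krt14. Krt15 was at 6349 and 8778 CPM in members and 6296 and 7870 CPM in the other basal cells. The 10 basal markers, rule genes included, summed to 20896 and 23976.5 CPM in members, below the 24550 and 28449 CPM of the other basal cells. Krt13, a keratin of cells leaving the basal layer, was nevertheless at 5847 and 12893 CPM in members. Markers of other cell types were near 0: all 4 T cell markers were at 0 in both libraries, taste cell markers gave 0 and 1 UMI, and 5 Langerhans or myeloid markers gave 5 and 3 UMIs in all. Of 6 fibroblast markers only Dcn was detected, at 1322 and 565 CPM, while Col1a1, Col1a2, Col3a1, Lum and Pdgfra were at 0. Of the 3 Merkel cell markers only Piezo2 was detected, and melanocyte markers gave 6 and 20 UMIs. Of 8 myoepithelial or gland markers 4 were at 0 in ZT0 members and 1 in ZT12 members, and the list summed to 9.30 and 39.6 CPM, against 19.97 and 46.5 CPM in the other basal cells. Most of it was the smooth muscle actin gene Acta2, at 5.87 and 35.6 CPM, of which 5 cells held 91.7% and 56.8%, while Myh11 and Oxtr gave at most 1 UMI.

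The 6 genes proposed as markers set the members apart only in part. These values describe the members and were not tested, since the members were chosen on the same cells. Smoc2 (ENSMUSG00000023886, chromosome 17, 14279506 to 14404790, mm10), a matricellular protein gene known as a stem cell marker in other epithelia, had 49.0 CPM (39.8 to 59.5) in ZT0 members and 62.7 CPM (55.8 to 70.3) in ZT12 members. The other basal cells had 28.3 CPM (25.1 to 31.9) and 33.9 CPM (30.9 to 37.0). It was lowest in the Npnt-type cells, with 13.1 and 15.7 CPM, whereas the Pappa-type cells had 55.2 and 53.6 CPM, as much as the members. With each cell thinned to 10000 UMIs, Smoc2 was detected in 32.2% and 39.1% of members (40.8% and 53.1% before thinning). In differentiated keratinocytes, taken as the background for free RNA, it was detected in 0.192% and 0.98% of cells, at median depths of 39670.5 and 33193 UMIs before thinning.

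Igfbp4 (ENSMUSG00000017493, chromosome 11, 99041244 to 99054392), which encodes a secreted binding protein for insulin-like growth factors, was at 80.3 and 232 CPM in members. The other basal cells had 49.0 and 129 CPM, and the cells past the Sostdc1 limit alone had 78.6 and 232 CPM. Igfbp4 thus stood above the Pappa-type and Npnt-type cells in both libraries, but at the level of the Sostdc1-only cells. Gpnmb, a transmembrane glycoprotein gene best known from melanocytes and macrophages, was at 25.9 and 18.5 CPM in members and 4.45 and 5.44 CPM in the other basal cells. Its signal was narrow: 5 cells held 75.5% of the member UMIs at ZT0 and 84.1% at ZT12. The imprinted non-coding RNA H19 was at 91.1 and 82.5 CPM against 64.8 and 38.9 CPM, and 5 cells held 56.5% and 38.8% of its member UMIs. The cells past the Sostdc1 limit alone had 122 and 79.5 CPM of H19, and Pappa-type cells 85.9 and 46.3 CPM. Snai2, a transcription factor that holds keratinocytes in an undifferentiated state, was at 112 and 108 CPM in members and 103 and 125 CPM in the other basal cells. The Notch modulator gene Dlk2 was at 72.5 and 52.0 CPM against 55.4 and 55.0 CPM. Against the pooled other basal cells, Smoc2, Igfbp4 and Gpnmb were thus at least 1.5 times higher in members in both libraries. H19 was so only at ZT12, and Snai2 and Dlk2 in neither.

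**Figure D1:**
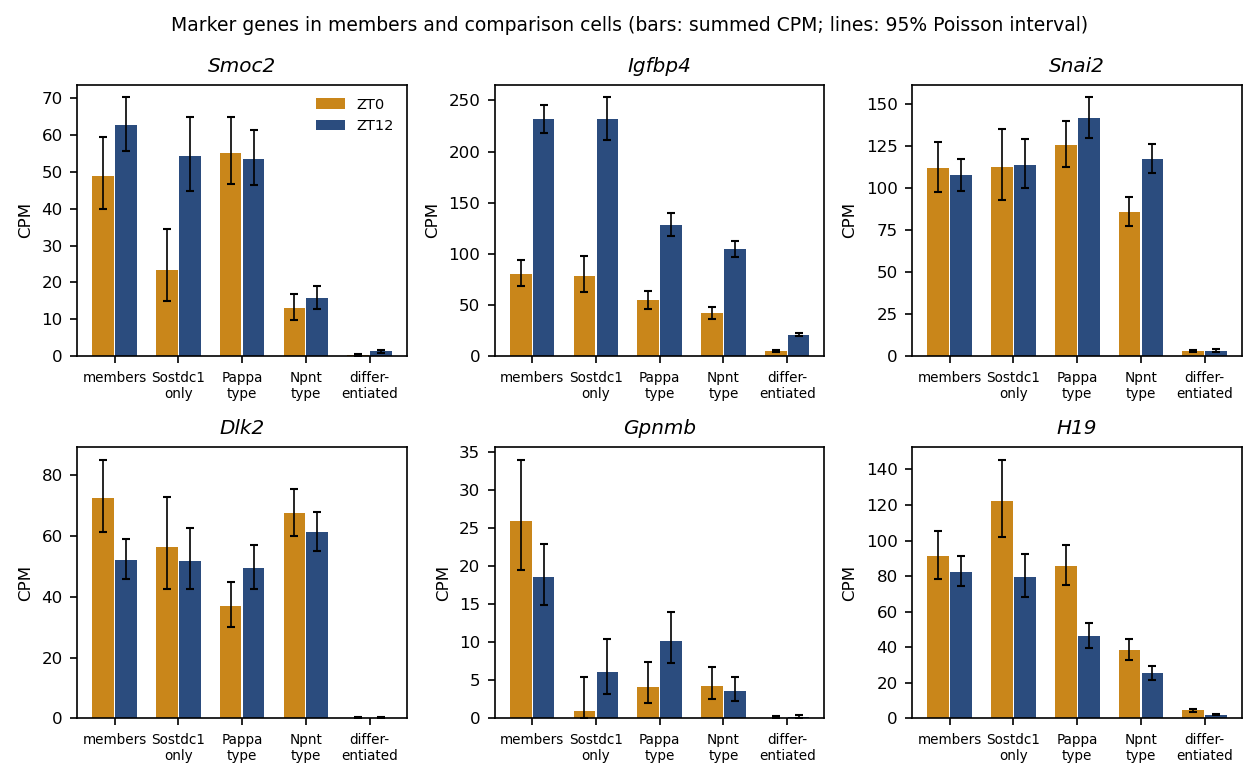
Summed CPM (y axis) of the 6 proposed markers in members, cells past the Sostdc1 limit alone, Pappa-type, Npnt-type and differentiated cells, for ZT0 and ZT12. Bars are 1 library each and lines are exact 95% Poisson intervals. Smoc2 is as high in Pappa-type cells as in members, Igfbp4 as high in the Sostdc1-only cells, and Snai2 and Dlk2 are spread over all basal classes.

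Members were also set against the other basal cells over all genes, as a description of what the rule selected. Of 2937 genes with a mean of at least 50 CPM, 34 (1.16%) were at least 1.5 times higher in members in both libraries with intervals excluding 1, and 45 (1.53%) were lower. Of the early differentiation list, 5 of 19 measured genes were higher in members by the wider list rule (at least 5 CPM), namely Krt13, Cyp2f2, Elf3, Tgm3 and Serpinb2, and none was lower. By that rule 1.43% of 9641 genes were higher and 1.89% lower. The list's median log2 ratio was 0.30 and 0.95. Krt32, a keratin gene, was at 72.5 and 143 CPM in members and 20.7 and 42.4 CPM in the other basal cells. The mucosal keratin gene Krt13 (ENSMUSG00000044041, chromosome 11, 100117327 to 100121566) was at 5847 and 12893 CPM against 2379 and 4511 CPM. The cells past the Sostdc1 limit alone had 4797 and 9594 CPM of Krt13, nearer to the members than to the pooled other basal cells. The transglutaminase gene Tgm3 was at 53.9 and 173 CPM against 18.0 and 56.2 CPM, and Ppl, which encodes the desmosomal and envelope protein periplakin, at 35.7 and 118 CPM against 12.5 and 39.3 CPM. All 4 were higher still in differentiated cells, where Krt13 reached 32971 and 39044.5 CPM. Markers of differentiated keratinocytes summed to 8380 and 16138 CPM in members and 4577 and 6340 CPM in the other basal cells, and their part in the difference was not tested.

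The other genes named among the 34 by their rank have varied roles and were not tested as a group. Egln3, an oxygen-sensing prolyl hydroxylase that is itself induced by hypoxia, was at 123 and 167 CPM in members, 2.99 and 3.06 times the level in the other basal cells. Differentiated cells had 61.7 and 76.0 CPM, between members and the other basal cells. Within members Egln3 was at 51.7, 137 and 188 CPM at ZT0 and 134, 182 and 183 CPM at ZT12 from the least to the most Krt13 and Krt4. Ndufa4l2, a mitochondrial protein gene also induced by hypoxia, was at 702 and 780 CPM, 2.25 and 2.94 times higher than in the other basal cells. The xenobiotic-metabolizing cytochrome P450 gene Cyp2f2 was 4.50 and 2.80 times higher, the selenium-binding protein gene Selenbp1 2.26 and 1.86 times, the carboxylesterase gene Ces1h 2.66 and 1.83 times, and glutamine synthetase (Glul) 1.85 and 2.22 times. Glul was, like Igfbp4, low in differentiated cells, at 8.08 and 26.9 CPM against 182 and 464 CPM in members. The metallothionein gene Mt4 was 2.17 and 1.92 times higher, but 5 cells held 73.3% of its member UMIs at ZT0 and 28.3% at ZT12. Ikzf2, a zinc finger transcription factor gene, was 1.87 and 2.497 times higher.

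Among the genes lower in members, those named by rank were high in 1 or both of the states that the rule removed, so the selection itself bears on their values. Nrp2, a receptor for semaphorins and VEGF, was at 21.1 and 4.42 CPM in members and 242 and 142 CPM in Npnt-type cells. Its signalling partner gene Plxna2 was at 87.1 and 114 CPM against 652 and 674 CPM in Npnt-type cells. The protease inhibitor gene Spink5 (29.4 and 119 CPM against 729 and 814 CPM) and the TGF-beta binding protein gene Ltbp1 (21.5 and 28.0 CPM against 134 and 140 CPM) had the same pattern. Crabp1, a retinoic acid binding protein gene, and Hpgd, which encodes the enzyme that inactivates prostaglandins, were high in Pappa-type cells instead. Crabp1 was at 12.7 and 29.1 CPM in members and 154 and 274 CPM in Pappa-type cells, and Hpgd at 80.8 and 115 CPM against 535 and 1065 CPM. The transcription factor gene Isl1 was high in both states, at 132 and 113 CPM in Pappa-type and 122 and 97.5 CPM in Npnt-type cells, and at 38.2 and 24.0 CPM in members. The arginine transporter gene Slc7a1 was likewise lower in members than in either state. Fam117b, at 52.4 and 37.1 CPM in members, was high in Npnt-type cells, with 202 and 177 CPM.

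Several genes that respond to BMP signals were lower in members than in the other basal cells. BMP ligands act through receptor kinases and SMAD proteins, which switch on the Id genes and feedback inhibitors such as Smad6 and Smad7. Of 18 measured genes of the BMP and TGF-beta list, 7 were at least 1.5 times lower in both libraries and 1 was higher, where 1.89% and 1.43% of 9641 genes of at least 5 CPM were lower and higher by the same limits. The list's median log2 ratio was -0.32 and -0.84, beside 0.00 and 0.03 over all genes. The rule left out cells with Npnt-type genes or Sostdc1, so the selection itself bears on these values. They describe the members, and the list was not tested. The 7 genes include Ltbp1, given above as high in Npnt-type cells. Id3 (ENSMUSG00000007872, chromosome 4, 136143497 to 136145755), an inhibitor of basic helix-loop-helix factors, was at 151 and 192 CPM in members, 560 and 549 CPM in the other basal cells, and 765 and 720 CPM in Npnt-type cells. Id1 was 2.45 and 2.88 times lower than in the other basal cells and Id2 2.44 and 2.43 times. The feedback inhibitors Smad7 and Smad6 were 1.53 and 2.01 times and 2.48 and 2.06 times lower, and the pseudoreceptor gene Bambi 2.70 and 3.97 times. Against these, the ligand gene Bmp4 was 2.098 and 1.75 times higher in members, at 49.9 and 38.5 CPM. Id1, Id2 and Id3 were also lower in members than in Pappa-type cells. Those cells had 172 and 237 CPM of Id1, 182 and 162 CPM of Id2 and 323 and 344 CPM of Id3. The rule removed the Pappa-type cells as well, and the source of the difference was not tested. The cells past the Sostdc1 limit alone had 459 and 379 CPM of Id3, and 68.2% of them had an Id3 UMI at ZT12 after thinning, close to the 62.6% of members. At ZT0 the shares were 89.8% and 56.7%, and in differentiated cells 31.5% at ZT0 and 29.3% at ZT12.

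Other lists were set against the other basal cells in the same way. Of 36 measured S phase genes, Mcm3, Mcm4, Hells, Dtl and Rpa2 were lower in members and none was higher. The median log2 ratio of that list was -0.42 and -0.43. The interferon-stimulated list had medians of 0.73 and -0.06, and of its 19 measured genes only Ifi27l2a was higher in both libraries. Krt14 was 1.52 and 1.77 times lower in members, at 6768 and 6712 CPM, a level like the 5757 and 6761 CPM of Pappa-type cells. The keratin gene Krt17 was 3.36 and 2.24 times lower. Of the basal transcription factor list, 5 of 19 measured genes were lower, Id1, Id2 and Id3 among them, with Sox9 and Bcl11b, and none was higher. Of the hemidesmosome and basement membrane list, from which the rule took 3 genes, only Egfl6 of 17 was lower. In the Wnt list the ligand genes Wnt6 and Wnt7b were higher, and Tcf7, a transcription factor of the pathway, and the ligand gene Wnt5a were lower, of 19 measured. In the Notch list only Dlk1, an imprinted Notch modulator gene, was higher of 11, at 15.2 and 40.0 CPM against 6.73 and 11.6 CPM.

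The rule has limits at which like cells fall on either side. Members with 2 UMIs of Npnt, Frem2 and Sema3c had Id3 at 184 and 284 CPM and Krt14 at 7968 and 7955 CPM, and basal cells with 3 such UMIs, just outside, had Id3 at 316 and 347 CPM and Krt14 at 8146 and 9705 CPM. Cells with a single Sostdc1 UMI and nothing else had Smoc2 at 32.1 and 70.2 CPM, Igfbp4 at 96.4 and 270 CPM and Krt13 at 6738 and 10531 CPM. Their Id3 was at 311 and 186 CPM, above the 151 CPM of members at ZT0 and near their 192 CPM at ZT12. The 31 and 82 members with no UMI of any of the 7 genes had Krt13 at 9469 and 17715 CPM, above members as a whole. Cells just under the hemidesmosome limit, at 8 to 10 per 10000, had Krt13 at 9419 and 19938 CPM and Smoc2 at 26.7 and 14.1 CPM.

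Members were not uniform, and Krt13 was among the genes that varied widely. Per 10000 UMIs, single ZT0 members had from 0 to 254 Krt13 UMIs with a median of 32.1, and ZT12 members from 1.254 to 410 with a median of 91.0. In the other basal cells the medians were 13.98 and 18.9, and the lowest 10% of cells lay under 1.42 and 2.89, an upper limit on free Krt13 RNA in those cells. The ranges of members and other basal cells overlapped. Krt14 ranged from 0.355 to 289 and from 0.434 to 371 in members, and Mt4 from 0 to 297 and from 0 to 191. Krt14 medians were 70.3 and 61.9 in members and 84.7 and 107 in the other basal cells, while Krt5 was even, with medians of 48.5 and 55.6 against 49.3 and 54.8.

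**Figure D2:**
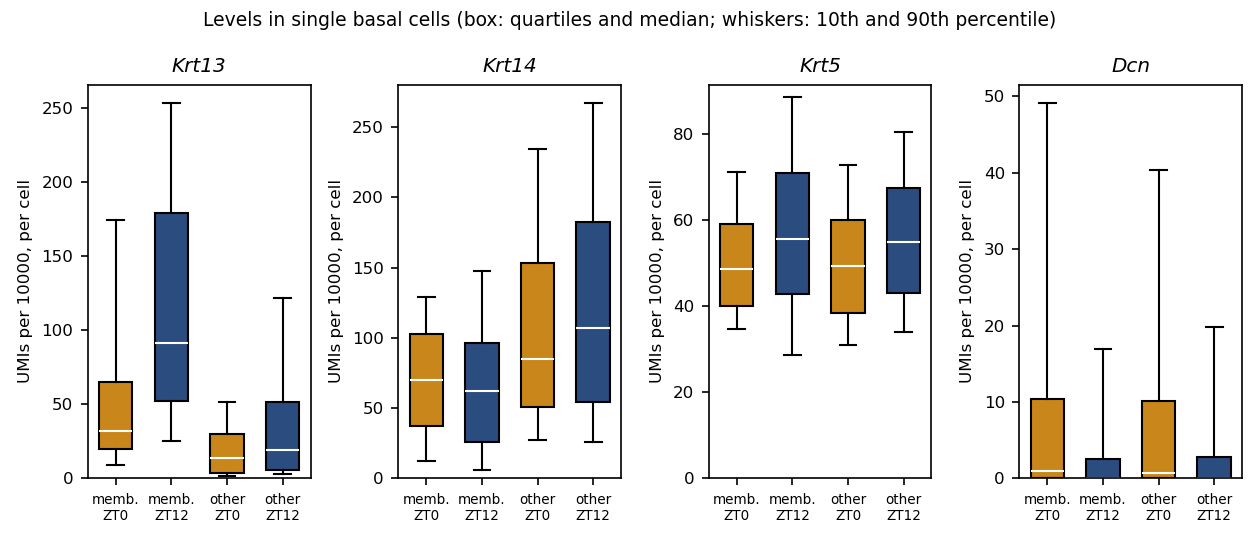
UMIs per 10000 in single cells (y axis) of Krt13, Krt14, Krt5 and Dcn, in members (memb.) and other basal cells of the ZT0 and ZT12 libraries. Boxes give quartiles and median, whiskers the 10th and 90th percentile. Krt13 is higher in members, with medians of 32.1 and 91.0 against 13.98 and 18.9, Krt14 is lower, and Krt5 is level.

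Sorting the members of each library by their Krt13 and Krt4 UMIs and dividing them into 3 equal groups, keratin-low, middle and keratin-high, showed which genes went with these keratins. The groups divide a continuous range and were not tested. From the keratin-low to the keratin-high group Krt14 went from 9639 to 2793 CPM at ZT0 and from 10814 to 3020 CPM at ZT12. In the keratin-high group it was thus near the 3047 and 2626 CPM of differentiated cells. Snai2, Trp63 and Dlk2 were also lowest in the keratin-high group. Snai2 went from 148 to 43.2 CPM and from 182 to 34.9 CPM, Trp63 from 715 to 283 CPM and from 509 to 241 CPM, and Dlk2 from 85.8 through 110 to 22.3 CPM and from 99.6 through 61.3 to 2.82 CPM. Other basal keratins did not follow this order. Krt15 was highest in the middle group, at 7931 and 12829 CPM, and Krt5 went from 4644 to 5395 CPM at ZT0 and from 5863 to 4785 CPM at ZT12. Smoc2 was at 64.0, 72.2 and 10.4 CPM over the ZT0 groups and at 79.7, 88.1 and 27.6 CPM over the ZT12 groups, so it was low only where Krt13 was highest. Igfbp4 did not follow this order, at 40.8, 110 and 95.3 CPM and at 270, 234 and 197 CPM.

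Several genes were highest in the keratin-high group of both libraries. Cyp2f2 went from 19.1 to 167 CPM at ZT0 and from 28.9 to 433 CPM at ZT12, Tgm3 from 19.1 to 119 CPM and from 61.7 to 349 CPM, and Krt32 from 14.98 to 191 CPM and from 37.3 to 277 CPM. The receptor gene Notch3 went from 1.36 to 32.8 CPM and from 5.14 to 59.1 CPM, and the Notch target Hes1 from 62.6 to 162 CPM and from 118 to 296 CPM. The aldehyde dehydrogenase gene Aldh3a1 went from 180 to 475 CPM and from 183 to 343 CPM. H19 went up at ZT0, from 46.3 to 152 CPM, and down at ZT12, from 112 to 40.0 CPM. The hemidesmosome sum used by the rule was 17.7, 20.3 and 17.3 per 10000 over the ZT0 groups and 25.7, 24.2 and 16.2 over the ZT12 groups. The clock gene Dbp was at 5.45 to 14.9 CPM over the ZT0 groups and 374 to 500 CPM over the ZT12 groups, with no overlap between these sums. Before thinning, 20.4% of ZT0 and 96.5% of ZT12 members had a Dbp UMI, as did 11.4% and 93.8% of the other basal cells.

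**Figure D3:**
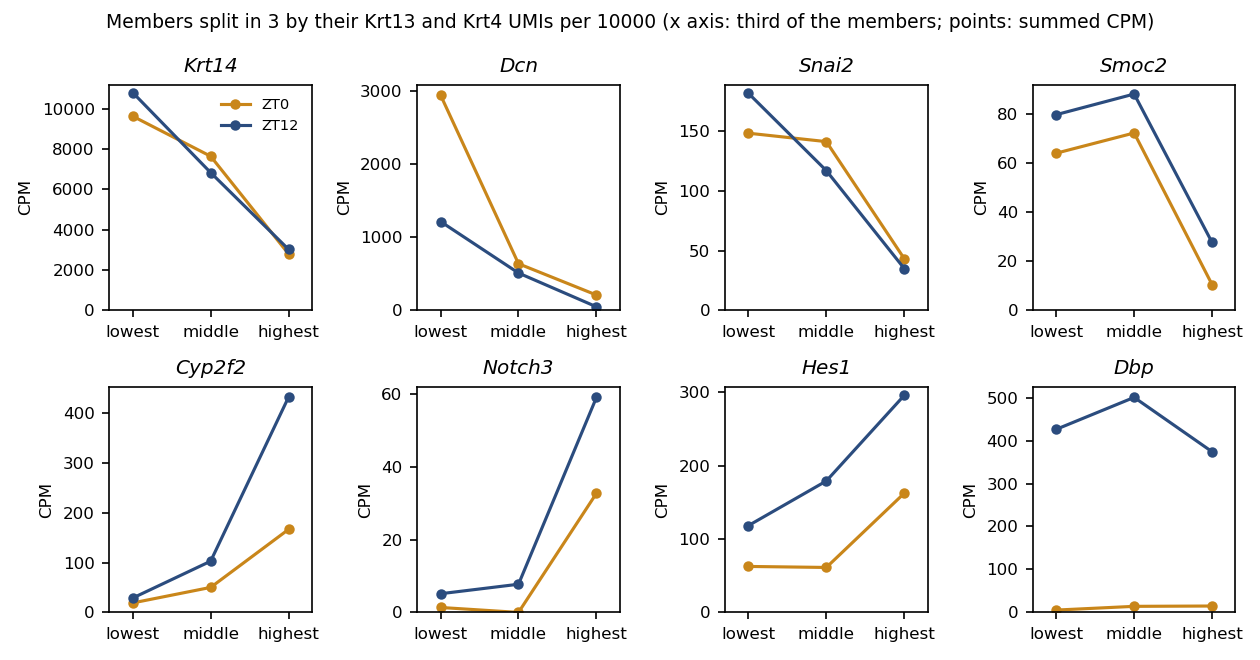
Summed CPM (y axis) of 8 genes in members split into 3 groups by their Krt13 and Krt4 UMIs per 10000 (x axis, lowest, middle and highest keratin), separately for ZT0 and ZT12. Krt14, Dcn, Snai2 and Smoc2 are lowest and Cyp2f2, Notch3 and Hes1 highest in the keratin-high group of both libraries, while the Dbp sums are higher at ZT12 in every group.

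Dcn marked a different group of members. Dcn (ENSMUSG00000019929, chromosome 10, 97479609 to 97518143) encodes decorin, a proteoglycan usually made by fibroblasts, whose other markers were at 0 here. Single ZT0 members had 0 to 96.2 Dcn UMIs per 10000 with a median of 0.928, and ZT12 members 0 to 123 with a median of 0. After thinning to 10000 UMIs, 26 of 90 ZT0 members (28.9%, 19.8 to 39.4) and 33 of 243 ZT12 members (13.6%, 9.54 to 18.5) had at least 10 Dcn UMIs, and the thinning left out 8 and 13 shallower members. In differentiated cells the shares were 12.7% and 9.69%. Of these members, 1 of 26 and 3 of 33 also had 100 or more Krt13 and Krt4 UMIs, and 9 and 14 had 10 or more Mt4 UMIs. The other basal cells held Dcn-high cells at a like share, 25.8% and 15.5%, so this group was not particular to the members.

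Members made up a larger share of basal cells at ZT12 under the rule as given and under 6 of its 7 alternatives. The share was level under the alternative that applied the papilla-type limits at equal depth. They were 19.3% of basal cells at ZT0 (15.9 to 22.95) and 26.4% at ZT12 (23.7 to 29.3), a ratio of 1.37 (1.08 to 1.75), and 6.43% and 10.03% of all filtered cells, a ratio of 1.56 (1.23 to 1.99). The limits on the papilla-type genes are absolute UMI counts, and the ZT12 cells were shallower. When those limits were applied after thinning every cell to 5000 UMIs, 53.0% and 53.7% of basal cells were members and the ratio was 1.01 (0.873 to 1.18). That alternative also changed which cells were members, and the part of depth in the share difference was not tested. Within cells of 15000 to 30000 UMIs the ratio was 1.32 (1.004 to 1.75). The sort and the digestion can set such shares, and with 1 library per time they cannot be told apart from the time of day.

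Between the times, 37 of 2954 genes (1.25%) with a mean of at least 50 CPM in members were at least 2-fold higher at ZT12 with an interval excluding 1, and 17 (0.575%) were lower. In the other basal cells 16 (0.546%) were higher and 11 (0.375%) lower of 2930. For gene lists a wider rule was used, at least 5 CPM and 1.5-fold. By this rule 476 of 9580 genes (4.97%) were higher and 590 (6.16%) lower at ZT12 in members, and 261 (2.72%) and 325 (3.39%) in the other basal cells. The members are fewer than the other basal cells, so their values carry more counting error. Without the 21 ZT12 members that lacked an Xist UMI the size rule again gave 37 and 17 genes, 35 and 17 of them shared.

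**Figure D4:**
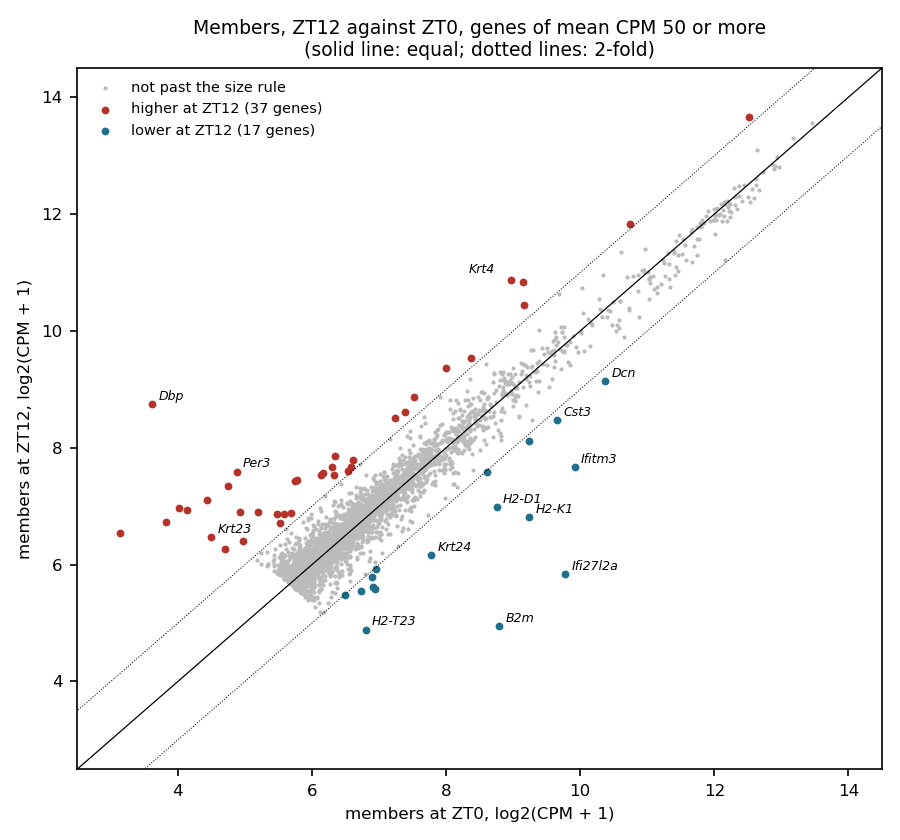
Members at ZT12 (y axis) against ZT0 (x axis), log2 of CPM plus 1, for genes of mean CPM 50 or more, 1 point per gene. The solid line is equality and the dotted lines 2-fold, with 37 genes higher at ZT12 in red and 17 lower in blue. Dbp lies farthest above the line, and Ifi27l2a and B2m lie farthest below it.

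Genes of the circadian clock differed between the times. The clock is a loop in which the activators BMAL1 and CLOCK induce PAR bZip output factors and the repressors that later silence them. Activator genes and several repressor genes peak at opposite times, but the repressor gene Cry1 was higher at ZT0 here, with the activators. All 7 measured genes known to be high at ZT12 were higher there in members, with a median log2 ratio of 2.71 against 2.37 in the other basal cells, and all 4 measured genes known to be high at ZT0 were lower, with medians of -2.09 and -1.95. Dbp (ENSMUSG00000059824, chromosome 7, 45705088 to 45710203), the PAR bZip output factor, was at 11.3 CPM in ZT0 members and 429 CPM in ZT12 members, 38.1-fold higher (25.3 to 60.2). The repressor genes Nr1d2 and Nr1d1 were 7.96-fold (5.41 to 12.2) and 6.66-fold (4.87 to 9.32) higher, and the deubiquitinase gene Usp2, a clock output, 8.21-fold (5.72 to 12.2) against 3.48-fold in the other basal cells. Arntl, which encodes BMAL1, was at 44.1 and 2.32 CPM, a ZT0 excess of 19.03-fold (10.1 to 39.5). The genes of its binding partners, Npas2 and Clock, were 5.31-fold and 2.49-fold higher at ZT0, and the repressor gene Cry1 4.60-fold.

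Tef, another PAR bZip factor, was at 25.9 and 162 CPM, 6.26-fold higher at ZT12 (4.74 to 8.44), and the period gene Per3 at 28.4 and 192 CPM, 6.76-fold higher (5.18 to 8.98). These are the 2 genes of the ZT12-high clock list whose upstream 250 bases held a clock motif. BMAL1 and CLOCK bind the E-box CACGTG, which is its own complement, and PAR bZip factors bind the D-box TTATGTAA or TTACGTAA. Each motif was searched on both strands in the RefSeq promoters of build GRCm38.p6, where 6.02% of 32851 promoters held the E-box and 0.931% the D-box. All 7 genes were matched, and 1 held each motif. A gene was counted if any of its listed promoters held the motif, while the percentages count single promoters. An E-box was also found in Cry1, 1 of the 4 genes high at ZT0, and in Psmb10, 1 of the 28 matched interferon and antigen presentation genes. The sequences run 5′ to 3′ on the strand of the gene up to its start, with the match in capitals; a match describes the letters and is no evidence of binding. The other listed start of Tef, at chr15:81811164-81811413 on the plus strand, also held an E-box.
Tef, chr15:81802423-81802672, plus strand: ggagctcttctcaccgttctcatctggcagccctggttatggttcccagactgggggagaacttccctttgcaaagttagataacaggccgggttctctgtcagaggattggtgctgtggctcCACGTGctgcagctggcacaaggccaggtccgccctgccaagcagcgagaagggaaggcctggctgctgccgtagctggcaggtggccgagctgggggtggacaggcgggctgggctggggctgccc
Per3, chr4:151044666-151044915, minus strand: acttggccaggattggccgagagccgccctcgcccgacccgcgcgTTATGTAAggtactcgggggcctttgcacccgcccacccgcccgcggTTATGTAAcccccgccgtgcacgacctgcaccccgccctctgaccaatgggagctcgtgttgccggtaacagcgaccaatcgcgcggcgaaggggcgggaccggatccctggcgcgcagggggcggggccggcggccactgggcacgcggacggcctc

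Interferon-stimulated and antigen presentation genes were higher at ZT0. Interferons act through STAT and IRF factors to switch on antiviral genes, the MHC class I genes and the immunoproteasome that cuts peptides for them. All 19 measured interferon-stimulated genes and all 16 antigen presentation genes were lower at ZT12 in members. Their median log2 ratios were -3.42 and -1.90, against -2.31 and -1.76 in the other basal cells. Without the 1 CPM added to each value, and with only UMI counts of 0 set to 3, the member medians were -3.97 and -1.95. Ifi27l2a (ENSMUSG00000079017, chromosome 12, 103442167 to 103443680), an interferon-induced gene, was at 878 and 56.0 CPM, 15.7-fold higher at ZT0 (13.8 to 17.9). B2m (ENSMUSG00000060802, chromosome 2, 122147686 to 122153083), the light chain of MHC class I, was at 443 and 29.9 CPM, 14.8-fold higher (12.4 to 17.8). The class I heavy chain genes H2-K1, H2-T23 and H2-D1 were 5.38-fold (4.86 to 5.97), 3.86-fold (3.11 to 4.82) and 3.42-fold (3.08 to 3.80) higher, and H2-Q7 had 167 UMIs at ZT0 and 0 at ZT12. The antiviral gene Ifitm3 was at 967 and 203 CPM, and the ubiquitin-like Isg15 had 147 and 3 UMIs, a ratio of 114 (38.2 to 559). Reads of the class I genes, and of Ifi27l2a, may be split with near-identical family members.

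The interferon signal reached most members at ZT0. After thinning to 10000 UMIs, 55 of 90 ZT0 members (61.1%, 50.3 to 71.2) and 9 of 243 ZT12 members (3.70%, 1.71 to 6.91) had at least 10 UMIs over the list, 16.5 times more at ZT0 (8.09 to 38.0). The shares were 56.3% and 4.06% in the other basal cells and 38.2% and 1.74% in differentiated cells. Over the groups by Krt13 and Krt4, B2m was at 223, 531 and 599 CPM at ZT0 and Ifi27l2a at 575, 917 and 1172 CPM, both lowest in the keratin-low group. In ZT12 members B2m was at 17.4 to 45.1 CPM in all groups.

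The promoters of this group were searched for GAAANNGAAA, the core bound by IRF factors, on both strands over the same 250 bases, where 2.98% of all promoters held it. Of 35 measured genes of both lists 28 were matched, and 10 of these held it in at least 1 promoter: Isg15, Ifit1, Stat2, Bst2, Gbp2, Igtp, Irgm1, B2m, H2-T23 and H2-T22. The 2.98% counts single promoters and is not a share of genes. Of the 11 clock genes none held it. Isg15, B2m and H2-T23 are shown because they span the strongest and the weaker differences; capitals mark the match, which in H2-T23 lies on the opposite strand and in Isg15 consists of 3 overlapping matches.
Isg15, chr4:156200819-156201068, minus strand: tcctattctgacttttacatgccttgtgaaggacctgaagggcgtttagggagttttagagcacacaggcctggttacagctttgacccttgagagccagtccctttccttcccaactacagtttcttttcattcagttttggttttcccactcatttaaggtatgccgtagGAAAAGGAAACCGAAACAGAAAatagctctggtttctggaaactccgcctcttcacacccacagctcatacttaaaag
B2m, chr2:122147437-122147686, plus strand: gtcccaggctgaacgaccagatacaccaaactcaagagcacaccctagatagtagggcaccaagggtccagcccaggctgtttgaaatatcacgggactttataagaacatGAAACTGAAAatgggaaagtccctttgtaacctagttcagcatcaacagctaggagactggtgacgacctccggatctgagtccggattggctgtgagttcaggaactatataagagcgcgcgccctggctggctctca
H2-T23, chr17:36032702-36032951, minus strand: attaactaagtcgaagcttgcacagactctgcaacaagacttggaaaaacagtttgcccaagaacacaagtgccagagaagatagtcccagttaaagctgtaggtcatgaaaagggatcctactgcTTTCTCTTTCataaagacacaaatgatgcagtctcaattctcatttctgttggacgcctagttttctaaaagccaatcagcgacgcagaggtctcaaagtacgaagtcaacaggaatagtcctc

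Genes of early differentiation were higher at ZT12 in members. Of 19 measured genes of this list 12 were at least 1.5-fold higher and only Sfn was lower, the median log2 ratio being 0.74. In the other basal cells 4 were higher and 1 lower, and the median was 0.06. Krt13 was at 5847 and 12893 CPM, 2.20-fold higher at ZT12 (2.16 to 2.25), and its partner Krt4 at 498 and 1882 CPM, 3.78-fold higher (3.54 to 4.04). Both were higher at ZT12 in the other basal cells too, Krt13 at 2379 and 4511 CPM and Krt4 at 346 and 647 CPM. The keratin genes Krt6a and Krt16 were 2.12-fold (2.05 to 2.21) and 2.33-fold (1.89 to 2.91) higher in members, against 1.15-fold and 0.938-fold in the other basal cells, although Krt16 in members was at -0.051 on the log2 scale when the papilla-type limits were applied after thinning and at 0.011 without the top 5% of doublet scores. Dsc2, a desmosomal cadherin gene, was 2.65-fold higher (2.22 to 3.18) and Tgm3 3.21-fold (2.63 to 3.96). Cyp2f2 was 2.61-fold higher (2.20 to 3.11), but its log2 ratio turned to -0.58 without the members that had 100 or more Krt13 and Krt4 UMIs per 10000.

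The number of Krt13-rich members was counted as well. After thinning, 20 of 90 ZT0 members (22.2%, 14.1 to 32.2) and 127 of 243 ZT12 members (52.3%, 45.8 to 58.7) had at least 100 Krt13 and Krt4 UMIs, 2.35 times more at ZT12 (1.46 to 3.98). In the other basal cells the shares were 4.18% and 12.5%, a ratio of 2.99 (1.76 to 5.36). The limit was chosen after the values were seen, and 6 and 44 members lay within 25% of it. Krt13 and Krt4 belong to the list, so leaving out such cells lowers the list by construction and supports nothing. Without them (75 and 128 members were left) the list median was 0.22, Krt4 was at 0.22 and the transcription factor gene Grhl3 turned from 0.62 to -0.16 on the log2 scale. The size rule then gave 34 genes higher and 18 lower at ZT12, of which 21 and 14 were among the 37 and 17.

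The DNA replication genes were higher at ZT12. A cell about to copy its DNA makes the MCM helicase subunits and the replication factors that load with them. Of 35 measured S phase genes 26 were higher in members at ZT12 and none lower, a median log2 ratio of 0.94. In the other basal cells 27 were higher and the median was 0.85. The helicase genes Mcm2 and Mcm4 were at 10.8 and 36.6 CPM and at 9.30 and 39.0 CPM, 3.40-fold (2.18 to 5.57) and 4.19-fold (2.61 to 7.11) higher at ZT12, and the chromatin remodeller gene Hells 3.01-fold (2.08 to 4.48). Single members had a median of 5 UMIs of the list at ZT0 and 6 at ZT12 after thinning to 10000 UMIs. With at least 10 UMIs over the list after thinning, 13 of 90 ZT0 members (14.4%, 7.92 to 23.4) and 69 of 243 ZT12 members (28.4%, 22.8 to 34.5) counted, a ratio of 1.97 (1.08 to 3.88), beside a background of 0.768% and 0.545% in differentiated cells. The other basal cells held 19.4% and 44.4%. Before thinning the member shares were 9.18% and 26.2% per 10000 UMIs, and 15 and 29 members lay within 25% of the limit. Leaving out the S-high members, which are defined by this list, lowers it by construction, and the list median was then 0.04, with Mcm3 and Mcm5 turned to -1.16 and -0.0095.

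Replication genes were also compared with Krt13 within the members. The S phase list summed to 411, 741 and 938 CPM over the ZT0 groups from least to most Krt13 and Krt4, and to 2364, 977 and 600 CPM over the ZT12 groups. At ZT12, 16 of 127 Krt13-rich members were S-high, against 69 of all 243. At ZT0 it was 3 of 20, against 13 of 90. These counts are small, and the Krt13-rich members are not the same cells as the keratin-high group. They therefore cannot show whether the ZT0 sums went with the share of S-high cells.

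The G1 list had 6 genes higher at ZT12 and 2 lower among 21 measured. Cyclin D1 (Ccnd1) and cyclin D2 (Ccnd2), which carry cells through G1, were at 330 and 739 CPM and at 574 and 1383 CPM in members, 2.24-fold (2.06 to 2.44) and 2.41-fold (2.26 to 2.57) higher. Single members had a median of 2.58 Ccnd1 UMIs per 10000 at ZT0 and 7.10 at ZT12. Wee1, a kinase gene that restrains mitotic entry and is a known clock output, was 3.68-fold higher (2.60 to 5.35). Rgcc, a cell cycle regulator gene, was at 16.7 and 121 CPM, 7.25-fold higher (5.13 to 10.6). It was 2.68 and 3.01 times as high in members as in the other basal cells. Cdkn1c, an imprinted Cdk inhibitor gene, was at 3.43 and 10.1 CPM in members and 3.93 and 2.29 CPM in the other basal cells. Its value in ZT0 members rests on few UMIs.

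Igfbp4 stood out in its own family. It was 2.89-fold higher at ZT12 in members (2.45 to 3.42) and 2.63-fold in the other basal cells, while Igfbp7 was lower and 7 of the 9 measured genes of the insulin-like growth factor list passed neither limit. After thinning, 34.4% of ZT0 and 66.3% of ZT12 members had an Igfbp4 UMI (52.0% and 74.6% before), against 5.18% and 14.1% of differentiated cells. The other 5 markers differed little between the times. Smoc2 was 1.28-fold higher at ZT12 (1.02 to 1.62). Snai2 was 0.964-fold (0.823 to 1.13) and its direction turned under 2 of 13 alternatives, as did that of H19, at 0.906-fold (0.759 to 1.09). Dlk2 was 0.718-fold (0.583 to 0.886), with its direction turned under 1 alternative, and Gpnmb 0.714-fold (0.502 to 1.02).

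**Figure D5:**
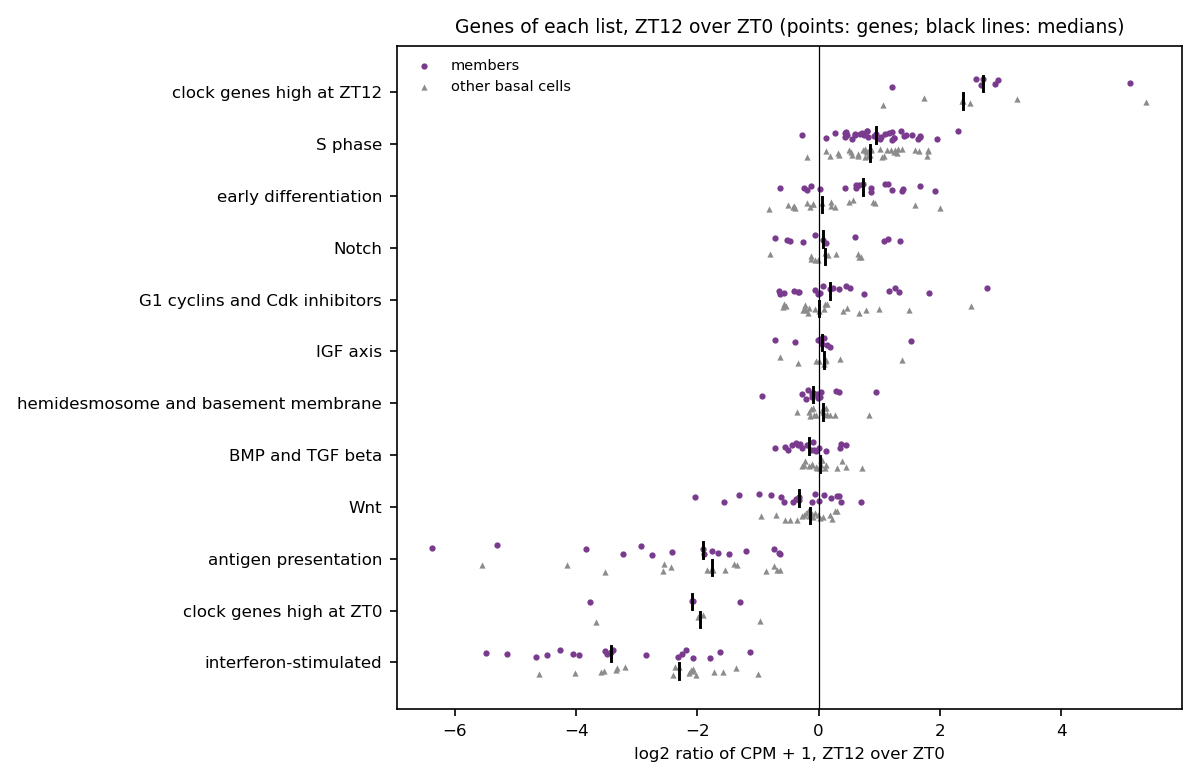
Log2 ratios of CPM plus 1, ZT12 over ZT0 (x axis), of the genes of 12 lists (y axis) in members (circles) and other basal cells (triangles), with medians as black lines. The clock and interferon lists lie far from 0 in both, and the early differentiation list has a median of 0.74 in members and 0.06 in other basal cells.

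Notch genes were mixed, and the Wnt genes that passed the limits were all higher at ZT0. Notch receptors signal between neighbouring cells and are known to drive keratinocytes out of the basal state. Of 11 measured Notch genes, the receptors Notch1 and Notch3, the modulator Dlk1 and the target Hes1 were higher at ZT12 in members, and the glycosyltransferase gene Lfng was lower. Hes1 was at 94.98 and 203 CPM, 2.13-fold higher (1.83 to 2.504), and Notch3 was 2.32-fold higher (1.48 to 3.79), both highest where Krt13 was highest. Of 20 measured Wnt genes none was higher and 6 were lower at ZT12, the median log2 ratio being -0.32 against -0.14 in the other basal cells. They were the transcription factor gene Tcf7, the receptor gene Lgr6, the ligand genes Wnt3 and Wnt6, and the modulator genes Dkk3 and Apcdd1. Lgr6 rested on 24 and 10 UMIs, Tcf7 on 19 and 15 and Wnt3 on 18 and 11. Apcdd1, an inhibitor of Wnt signals at the membrane, was at 71.5 and 35.6 CPM, 2.01-fold higher at ZT0 (1.60 to 2.52).

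The hemidesmosome and BMP lists held few differences between the times. In the hemidesmosome and basement membrane list, 14 of 16 measured genes passed neither limit, with the plakin gene Dst 1.92-fold higher at ZT12 (1.82 to 2.02) and the integrin gene Itga3 1.94-fold higher at ZT0 (1.499 to 2.52). In the BMP and TGF-beta list, 17 of 18 passed neither limit, and the activin inhibitor gene Fst was lower at ZT12. Dcn was 2.34-fold higher at ZT0 (2.22 to 2.47) in members and 1.82-fold in the other basal cells. Single genes outside the lists that were higher at ZT0 included Cst3, which encodes the protease inhibitor cystatin C, at 806 and 353 CPM, and Procr, the protein C receptor gene, at 122 and 47.2 CPM, and Bok, a relative of the apoptosis gene Bax, at 106 and 45.9 CPM. The keratin genes Krt23 (21.5 and 87.8 CPM) and Krt24 (218 and 70.3 CPM) went opposite ways, and periplakin (Ppl) was 3.30-fold higher at ZT12 (2.58 to 4.27). Spink5 was 4.04-fold higher at ZT12 (3.09 to 5.37), but its log2 ratio went from 1.98 to 0.17 when the papilla-type limits were applied after thinning, and it is a gene of the Npnt-type cells.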

How the data were processed

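The deposited values were raw UMI counts for 32285 genes, used as the authors deposited them. The submitters' processing notes name Cell Ranger 2.1.1 and build mm10, the file headers Cell Ranger 4.0.0. Which gene annotation was counted is not stated in the labels. Gene positions come from GENCODE M21, where 32235 identifiers were found. No correction for free RNA was made. Scrublet (scanpy 1.11.5) called 1 and 2 cells as doublets, 0.0656% and 0.0783%, so doublets were in effect not removed.

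Counts were summed over cells per library and scaled to CPM. Log2 ratios use CPM plus 1. As each time had a single library, no test was run and p-values are not given. CPM carry exact Poisson intervals, ratios exact conditional binomial intervals and shares exact Clopper-Pearson intervals. Differentiated cells had under 2 UMIs per 10000 of the hemidesmosome genes and at least 20 of Krt13, Krt4, Krtdap and Sbsn. Recovery by the size rule was checked on simulated counts with known folds. These were Poisson counts without spread between cells or libraries, so the check covers counting error only. The members and the 21 lists were chosen with earlier results of these data known. Named genes are 12 per comparison and direction, ranked by ratio, the 6 markers, and up to 5 per list with the largest ratio at a mean of 20 CPM or more. Genes named beyond these illustrate a list or class and were chosen after their values were seen. One of the 12 genes higher at ZT12 is not reported here. The alternatives covered the limits of the rule, scaling (edgeR 4.0.16 TMM or median ratio), pseudocount, minimum CPM, weighting of cells, doublet score, depth, and members high for S phase genes. The alternatives without cells high for Krt13 and Krt4 and without members lacking Xist were chosen after seeing the data.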

Additional observations from a re-analysis of the deposited data

How the results depend on the processing

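The member share ratio was 1.01 with the papilla-type limits applied after thinning and between 1.32 and 1.45 under the 6 other alternatives. Counts of genes past the size rule moved with the minimum CPM. At 20 and 100 CPM there were 74 and 22 genes higher and 63 and 10 lower at ZT12, and 71 and 21 higher and 95 and 21 lower in members than in other basal cells. With the limits after thinning, 24 genes were higher at ZT12, 22 of them among the 37. Of values of single genes between the times, 1246 stayed within their interval, 140 moved out of it, and 5 of genes past the list limits changed sign. Sign changes of genes that passed no limit, such as Snai2, Dlk2 and H19, are not among these 5. The log2 ratios that turned were Cyp2f2 at -0.58 and Grhl3 at -0.16 without cells high for Krt13 and Krt4, Krt16 at -0.051 with the limits after thinning, and Mcm3 at -1.16 and Mcm5 at -0.0095 without S-high members. The scalings shifted all log2 ratios by -0.01 (TMM) and 0.05 (median ratio). No paired analysis was possible because there was 1 library per time and the labels give no replicate numbers. Genes near 5 CPM rest on few UMIs in the 98 ZT0 members, so small differences there were not detectable at this depth.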
